A study of Tupaia belangeri chinensis with 36 samples.

Results

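The outer subventricular zone (OSVZ) and the intermediate zone (IZ) of the fetal Chinese tree shrew cortex meet at the outer border of the germinal zone, and their RNA was compared at embryonic day 42 (E42). The comparison was formed by taking every library labelled E42 OSVZ (2 libraries) and every library labelled E42 IZ (2 libraries), which is 4 of the 36 libraries of the series. The fetuses were untreated, and each library was made from tissue cut by laser from Nissl-stained frozen sections of fetal cortex, with mRNA selected on oligo-dT beads. The same layers at E28 (2 libraries each) served as the earlier stage. The p-values rest on the spread between replicate libraries, estimated over all groups of layer and stage together. The labels give a replicate number but do not state whether it marks a fetus, a litter or a day, so this spread may in part be technical. How far a cut strip also held cells of its neighbour was not tested.

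In the fetal cortex, neural progenitors divide near the ventricle, and their daughter neurons move outward through the IZ to the cortical plate (CP). The OSVZ is a second germinal layer, best known from primates, in which outer radial glia divide away from the ventricle. The IZ holds migrating neurons and growing axons.

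The files count 76871 annotated features, and 3 kinds of name could be told apart. Most of the RNA lay on 21043 features with TSDBGID identifiers, and none of the identifiers was found in the RefSeq gene table, so these features have no gene names here. Gene names were available only inside the names of 31776 features of the form LINC-SYMBOL-n and 22595 of the form SYMBOL-AS-n, which read as intergenic and antisense transcripts named after a gene. The level of such a feature is not the level of the gene it is named after. Because the counting is not stated to have used strand, reads of an antisense feature cannot be told from reads of the gene on the other strand. Because the TSDBGID features carry no gene names, the layer labels could not be checked against marker genes.

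The 4 libraries held between 25143369 (OSVZ replicate 1) and 45173487 (IZ replicate 1) counts on features, and LINC and AS features took 1.87% to 2.12% of them. OSVZ replicate 1 was the shallowest and had the largest share of reads that did not align uniquely, 4.79% against 2.35% to 2.66% in the other 3. Replicate 2 of the E28 ventricular zone (VZ) and replicate 2 of the E42 VZ had identical counts under different labels, and both were left out, so the fit used 34 libraries in 18 groups of layer and stage. Levels below are CPM, the count per 1000000 counts of the library size scaled by TMM. Fold changes are OSVZ over IZ on the log2 scale. The SE beside a log2 fold change is its absolute value divided by the square root of the test's F statistic. It is an approximate standard error, not one estimated by the fit.

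More features were higher on the neuronal side of this border than on the germinal side. Of 26780 features tested, 2346 (8.76%) passed edgeR's quasi-likelihood test at a Benjamini-Hochberg adjusted p of 0.05. In the IZ, 1540 (5.75%) were higher, with a median log2 fold change of −1.87, and in the OSVZ 806 (3.01%) were higher, with a median of 1.06. The IZ side thus held 65.6% of the calls and also the larger differences, while the median over all features tested was 0. In bulk tissue, fewer cells of a type and less RNA per cell cannot be told apart. These counts depend on each library. Without IZ replicate 1, 1166 features were called (257 higher in the OSVZ and 909 in the IZ), without OSVZ replicate 1, 1260 (432 and 828), without IZ replicate 2, 1499 (500 and 999), and without OSVZ replicate 2, 1723 (709 and 1014).

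**Figure D1:**
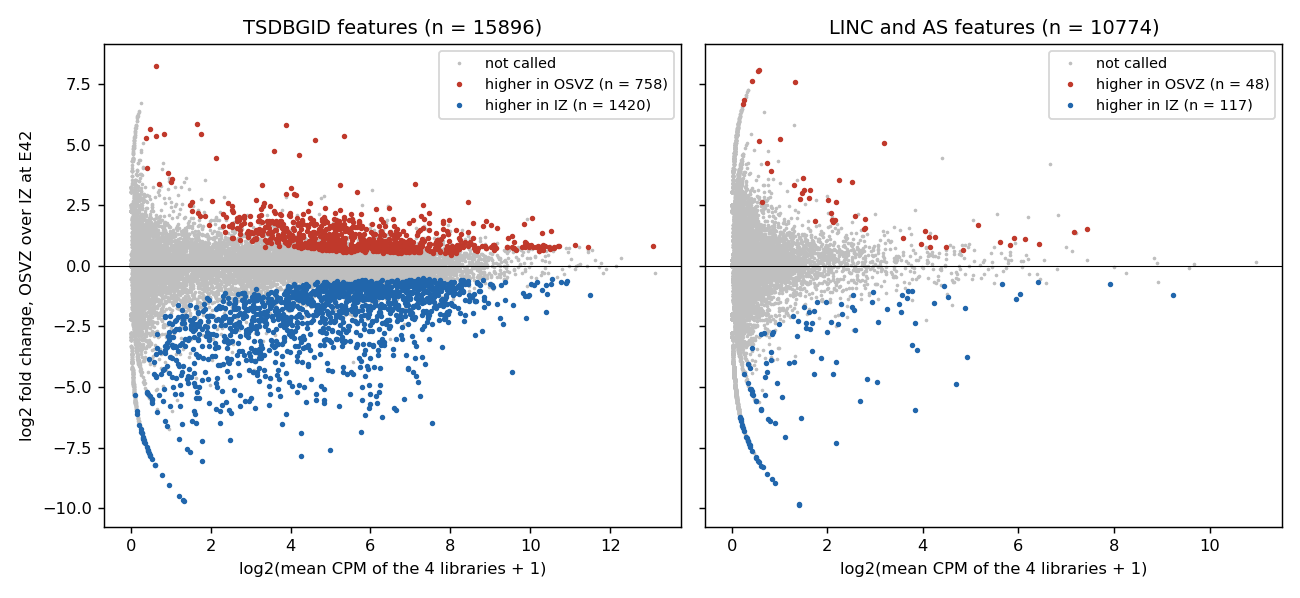
Log2 fold change of OSVZ over IZ at E42 (vertical axis) against log2(mean CPM of the 4 libraries + 1) for TSDBGID features (left, 15896 tested) and LINC and AS features (right, 10774 tested). Each point is a feature, red where it was called higher in the OSVZ, blue where higher in the IZ and grey where not called. The blue points reach further from 0 than the red, and the curved edges at the left are features with no counts in one layer, whose fitted values depend on the prior count.

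TSDBGID features made up most calls, with 758 higher in the OSVZ and 1420 in the IZ of 15896 tested. The features with names were rarely called and mostly scarce, with a median of 0.213 CPM in the higher layer. Of 10774 LINC and AS features 165 passed (1.53%), with 48 on the OSVZ side (0.446%) and 117 on the IZ side (1.09%). Among those with a mean of at least 1 CPM in the higher layer, 125 of 1708 LINC and AS features passed (7.32%), against 2144 of 12175 TSDBGID features (17.6%). These shares are not at equal level, as the medians in the higher layer were then 2.27 CPM for LINC and AS and 31.3 CPM for TSDBGID features. The named calls fell from 165 to between 57 (without IZ replicate 1) and 81 (without OSVZ replicate 2) when 1 library was left out, with 77 without IZ replicate 2 and 74 without OSVZ replicate 1. The 48 calls in the OSVZ were the less stable, with 8 without IZ replicate 1, 18 without IZ replicate 2, 20 without OSVZ replicate 1 and 31 without OSVZ replicate 2. The 117 in the IZ fell to between 49 and 59.

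The largest differences among named features were transcripts of the IZ with no count at all in the OSVZ. LINC-LIPI-5, named after a phospholipase gene, had 0 and 0 CPM in the OSVZ and 2.58 and 4.08 CPM in the IZ, at least 73.2-fold higher in the IZ (adjusted p = 1.48e-05). LINC-HS3ST4-2, named after a heparan sulfate sulfotransferase gene, had 0 and 0 CPM against 3.45 and 3.13 CPM, at least 75.8-fold higher (adjusted p = 1.93e-05). These lower limits set 3 counts over the 2 OSVZ libraries in place of 0. Both features were also abundant in the inner CP (CPi), where LINC-LIPI-5 had 7.68 and 6.77 CPM and LINC-HS3ST4-2 had 4.13 and 2.81 CPM, and in the inner SVZ (ISVZ) neither exceeded 0.0683 CPM.

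Other features with no count in the OSVZ were scarcer. CFAP221-AS-2, named after a gene of motile cilia, had 0 and 0 CPM against 1.83 and 0.894 CPM in the IZ (at least 33.0-fold, adjusted p = 9.34e-05). It was not absent from the other germinal layers, with 1.08 CPM in the VZ library and 0.135 and 0.359 CPM in the ISVZ. PAPPA2-AS-3, named after a protease that cleaves insulin-like growth factor binding proteins, had 0 and 0 CPM against 0.787 and 2.40 CPM (at least 33.3-fold, adjusted p = 0.00977). CNTN5-AS-4, named after a neuronal contactin, had 0 and 0 CPM against 0.965 and 1.31 CPM (at least 25.4-fold, adjusted p = 0.0239). The CNTN5 feature also had counts in the ISVZ, at 1.37 and 0.495 CPM, so its levels did not fall steadily toward the ventricle. Leaving out 1 library ended the call of PAPPA2-AS-3 (3 of 4 fits, adjusted p up to 0.103, without OSVZ replicate 2) and CNTN5-AS-4 (4 of 4 fits, adjusted p up to 0.168, without OSVZ replicate 2).

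A set of features stood out in the IZ itself, above the CP as well as the OSVZ. LINC-AOX2-1, named after an aldehyde oxidase gene, had 0 and 0.0709 CPM in the OSVZ and 6.38 and 7.62 CPM in the IZ, and in all other E42 libraries it stayed at or below 0.532 CPM. With 3 counts in the OSVZ and 597 in the IZ, its ratio was 158 (exact 95% interval 53.7 to 767, for counting error only; adjusted p = 0.000497). RPL17-AS-3 had 0 and 0 CPM against 1.61 and 1.90 CPM (at least 39.6-fold, adjusted p = 0.0164), and no other E42 library exceeded 0.298 CPM, although reads of ribosomal protein genes can belong to their many copies. LINC-GPRIN3-2, named after a gene linked to neurite outgrowth, had 0 and 0 CPM against 1.18 and 0.977 CPM (at least 25.1-fold, adjusted p = 0.0357). Elsewhere at E42 it reached at most 0.326 CPM. With 1 library left out, the call was lost for RPL17-AS-3 (4 of 4 fits, adjusted p up to 0.134, without OSVZ replicate 2) and LINC-GPRIN3-2 (4 of 4 fits, adjusted p up to 0.206, without OSVZ replicate 2).

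Others of this kind carried the names of signalling and matrix genes. LGR5-AS-1, named after the R-spondin receptor of Wnt signalling, had 0 and 0.0236 CPM in the OSVZ against 1.16 and 1.62 CPM in the IZ (1 against 117 counts, ratio 92.7, interval 16.3 to 3694, adjusted p = 0.0330). RGS9-AS-1, named after a regulator of G protein signalling, had 0 and 0.0236 CPM against 1.73 and 1.23 CPM (1 against 132 counts, ratio 105, interval 18.5 to 4163, adjusted p = 0.0138). COL15A1-AS-1, named after a basement membrane collagen, had 0.0380 and 0 CPM against 1.73 and 1.70 CPM (1 against 149 counts, ratio 118, interval 20.9 to 4696, adjusted p = 0.0135). For all 3 both IZ libraries lay above every other E42 library. Single libraries decided the call of LGR5-AS-1 (4 of 4 fits, adjusted p up to 0.252, without OSVZ replicate 1), RGS9-AS-1 (3 of 4 fits, adjusted p up to 0.157, without OSVZ replicate 1) and COL15A1-AS-1 (2 of 4 fits, adjusted p up to 0.16, without OSVZ replicate 2).

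Of the 117 named features higher in the IZ, 20 (17.1%) had both IZ libraries above all 11 other E42 libraries of the fit, and of all 10774 tested, 198 (1.84%) did. Since the call already asks for a high IZ, these shares describe the features and test nothing. The most abundant of the 20, picked out after its values were seen, was LINC-PAPOLG-4, with 0.0380 and 0.378 CPM in the OSVZ and 11.4 and 10.1 CPM in the IZ (log2 fold change −5.57, SE 0.98, adjusted p = 0.000239). PAPOLG encodes a poly(A) polymerase. AKAP2-AS-2, named after an anchoring protein of protein kinase A and also picked out afterwards, was called in the IZ but was not one of the 20. It had 1.94 and 1.35 CPM against 45.7 and 50.4 CPM (log2 fold change −4.88, SE 0.66, adjusted p = 6.15e-05). On the other side of the border, 11 of the 48 named features higher in the OSVZ (22.9%) had both OSVZ libraries above the other 11, against 250 of the 10774 (2.32%).

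Features higher in the OSVZ mostly had counts in the IZ as well, and 6 of the 806 had none there, against 57 of the 1540 IZ features with none in the OSVZ. LINC-ENV-46, which carries the name of a retroviral envelope gene, had the largest log2 fold change among LINC and AS features of at least 1 CPM, with 2.43 and 3.59 CPM in the OSVZ and 0 and 0.0279 CPM in the IZ (1 against 216 counts, ratio 273, interval 48.4 to 10813, adjusted p = 0.00671). Such genes exist in many copies, so its reads are uncertain. The next highest E42 library was ISVZ replicate 1 with 1.04 CPM. The call did not hold without single libraries for LINC-ENV-46 (1 of 4 fits, adjusted p up to 0.132, without IZ replicate 1).

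Among the 12 largest OSVZ features of at least 1 CPM, the VZ library was the highest single E42 library for ELP4-AS-3 and LINC-ID2-5. ELP4-AS-3 had 17.1 and 14.6 CPM in the OSVZ and 0.158 and 0.810 CPM in the IZ (log2 fold change 5.07, SE 1.22, adjusted p = 0.0148). ELP4 encodes an Elongator subunit, and in mammals it adjoins PAX6, the transcription factor of radial glia. The level of ELP4-AS-3 was 29.7 CPM in the one VZ library used, 12.5 and 11.8 CPM in the ISVZ, and at most 0.189 CPM in the CP and marginal zone (MZ). A second feature of the name, ELP4-AS-6, had 0.304 and 1.09 CPM in the OSVZ and 0 and 0 CPM in the IZ (adjusted p = 0.0448). LINC-ID2-5, named after an inhibitor of basic helix-loop-helix factors, had 1.75 and 2.22 CPM against 0.0197 and 0.0838 CPM (log2 fold change 5.25, SE 1.42, adjusted p = 0.0178), and it too was highest in the VZ library, at 4.31 CPM. Calls that ended when 1 library was left out were those of ELP4-AS-3 (2 of 4 fits, adjusted p up to 0.166, without IZ replicate 1), ELP4-AS-6 (4 of 4 fits, adjusted p up to 0.272, without IZ replicate 1) and LINC-ID2-5 (3 of 4 fits, adjusted p up to 0.226, without IZ replicate 1).

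DLX5-AS-1 carries the name of a homeobox gene of cortical interneurons and their precursors. It had 3.76 and 3.85 CPM in the OSVZ and 0.453 and 0.419 CPM in the IZ (log2 fold change 3.11, SE 0.70, adjusted p = 0.00322). The ISVZ was higher still, with 10.8 and 10.5 CPM, and the VZ library had 0.828 CPM. LINC-TMEM182-13, by contrast, was low in the ISVZ, at 0.315 and 0.273 CPM, and reached its highest level in outer CP (CPo) replicate 2, at 9.09 CPM. Its OSVZ libraries had 2.88 and 3.45 CPM and its IZ libraries 0.256 and 0.531 CPM (log2 fold change 3.02, SE 0.96, adjusted p = 0.0464). Its call ended in all 4 fits with 1 library left out (adjusted p up to 0.358, without IZ replicate 1), and that of DLX5-AS-1 in 1 (0.0528, without IZ replicate 1).

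The other 7 of the 12 largest OSVZ features of at least 1 CPM had log2 fold changes between 2.81 (LINC-RPS24-17) and 4.24 (LINC-RNF13-11). LINC-RPS24-17 had 2.92 and 4.40 CPM against 0.433 and 0.614 CPM (SE 0.55, adjusted p = 0.000748). LINC-RALGDS-11, named after an exchange factor for Ral GTPases, had 3.34 and 3.45 CPM against 0.236 and 0.307 CPM (log2 fold change 3.63, SE 1.11, adjusted p = 0.0373). Also among them were LINC-AP3M2-1, LINC-RPL21-31, LINC-RPL36A-30 and LINC-TMEM132B-26, and 3 of the 7 bore names of ribosomal protein genes. The last of the IZ features among the 12 largest was LINC-NCL-63, named after nucleolin, with 0 and 0.0236 CPM against 2.19 and 2.51 CPM (1 against 201 counts, ratio 159, interval 28.3 to 6323, adjusted p = 0.00260). Leaving out 1 library ended the call of LINC-RALGDS-11 (4 of 4 fits, adjusted p up to 0.275, without IZ replicate 1), LINC-AP3M2-1 (4 of 4 fits, up to 0.244, without IZ replicate 1), LINC-RPL21-31 (4 of 4 fits, up to 0.261, without IZ replicate 1), LINC-RPL36A-30 (2 of 4 fits, up to 0.135, without IZ replicate 2) and LINC-NCL-63 (1 of 4 fits, up to 0.0593, without OSVZ replicate 1). The call of LINC-RNF13-11 also ended in 4 of 4 fits (adjusted p up to 0.269), and its log2 fold change was 8.50 without IZ replicate 1 and 3.44 without IZ replicate 2.

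By the rule for naming features, 47 called features were picked (21 higher in the OSVZ and 26 in the IZ), and 15 of them passed under every alternative that gave a value. These were LINC-GLUL-1, LINC-RPS24-17, LINC-TMEM132B-26 and TSDBGID.2430 on the OSVZ side, and CFAP221-AS-2, LINC-AOX2-1, LINC-HIS-71-7, LINC-HS3ST4-2, LINC-ITGAE-1, LINC-LIPI-5, LINC-LORF2-107, LINC-SOX11-14, PFKP-AS-1, TSDBGID.12210 and TSHZ3-AS-1 on the IZ side. No named feature changed direction under any of them.

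**Figure D2:**
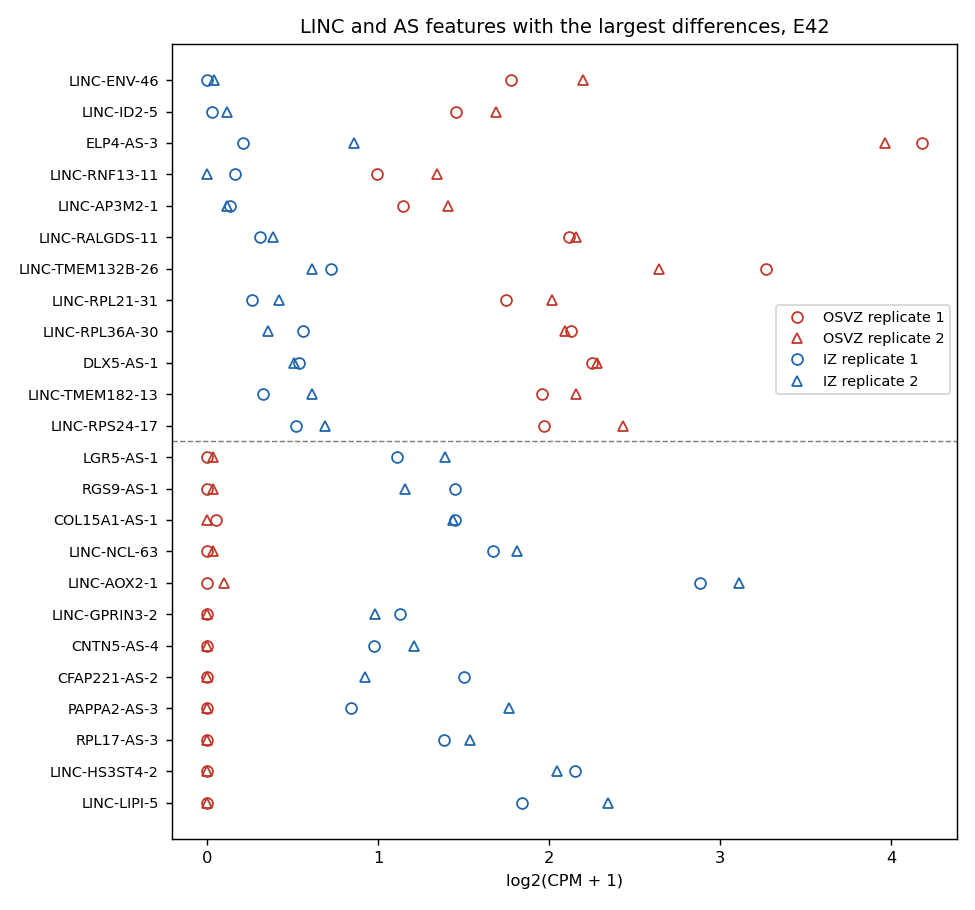
Levels of the 12 LINC and AS features of at least 1 CPM with the largest log2 fold change in each direction, 1 for each gene name, as log2(CPM + 1) in each of the 4 E42 libraries (red OSVZ, blue IZ, circles replicate 1, triangles replicate 2). Features above the dashed line were higher in the OSVZ and those below it in the IZ, and the libraries of the layers do not overlap for any of the 24, which the choice of features required. Most OSVZ points below the line sit at 0.

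Of the TSDBGID features, which have no gene names here, those with the largest change at 5 CPM or more were far more abundant. TSDBGID.12210 had 0.0759 and 0.213 CPM in the OSVZ and 36.8 and 36.0 CPM in the IZ (log2 fold change −7.84, SE 1.24, adjusted p = 0.000355), with 33.1 and 32.9 CPM in the CPi. TSDBGID.6444 had 0.342 and 0.284 CPM against 75.6 and 46.8 CPM (log2 fold change −7.61, SE 2.00, adjusted p = 0.0225), and it was far lower in the CPi, at 1.81 and 0.862 CPM. In the other direction, TSDBGID.2430 had 29.5 and 24.3 CPM in the OSVZ against 0.492 and 0.447 CPM (log2 fold change 5.83, SE 0.97, adjusted p = 0.000395). TSDBGID.18855 had 87.6 and 67.8 CPM against 1.69 and 2.15 CPM (log2 fold change 5.34, SE 1.06, adjusted p = 0.00324) and was highest in the VZ library, at 192 CPM. With 1 library left out, the call was lost for TSDBGID.6444 (3 of 4 fits, adjusted p up to 0.173, without OSVZ replicate 1) and TSDBGID.18855 (1 of 4 fits, adjusted p up to 0.0655, without IZ replicate 1).

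Features were then grouped by the gene in their name, using 17 lists of genes. The share called in each stands beside the 1.53% of all LINC and AS features (0.446% higher in the OSVZ and 1.09% in the IZ). That share is not matched for level, and abundant features were called more often. A mean of at least 1 CPM was reached by 1708 of all 10774 features, of which 7.32% were called. It was reached by 31 of the 94 radial glia features, which include all 3 of their calls. Of the 27 outer radial glia features 9 reached it. Radial glia and progenitor genes gave 94 tested features, of which 3 (3.19%) were called. All 3 were higher in the OSVZ (0.446% of all LINC and AS features). The DESeq2 Wald test called 10, also all in the OSVZ, where it called 106 of all 10774 LINC and AS features. LINC-POU3F3-5, named after a transcription factor of progenitors and upper-layer neurons, had 11.0 and 7.57 CPM in the OSVZ and 2.01 and 2.88 CPM in the IZ (log2 fold change 1.93, SE 0.56, adjusted p = 0.0255). LINC-POU3F3-1 had 54.6 and 72.5 CPM against 27.6 and 36.5 CPM (log2 fold change 0.99, SE 0.30, adjusted p = 0.0324). The OSVZ libraries were above both IZ libraries in both cases. Single libraries decided the call of LINC-POU3F3-5 (3 of 4 fits, adjusted p up to 0.256, without IZ replicate 1) and LINC-POU3F3-1 (3 of 4 fits, adjusted p up to 0.296, without IZ replicate 1).

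Most abundant features of this list had higher levels in the OSVZ, whether called or not. Of its 31 features with a mean of at least 1 CPM in the higher layer, 30 had a positive log2 fold change, with a median of 1.28, against 976 of all 1708 LINC and AS features at that level, with a median of 0.17. The 31 carried 13 gene names, 10 of them being features of POU3F3, and neighbouring features of 1 gene are not independent. Features that did not pass the test included LINC-SOX2-3, named after the stem cell factor SOX2, with 2.28 and 2.29 CPM in the OSVZ and 1.32 and 0.670 CPM in the IZ (log2 fold change 1.19, SE 0.73, adjusted p = 0.409). SOX9-AS-1, named after a radial glial transcription factor, had 11.2 and 12.1 CPM against 4.35 and 4.13 CPM (log2 fold change 1.46, SE 0.54, adjusted p = 0.0962). The list's features summed to 423 and 418 CPM in the OSVZ and 144 and 155 CPM in the IZ. Of these sums MEIS2-AS-3 alone made up 203 and 163 CPM in the OSVZ and 39.9 and 45.3 CPM in the IZ, and it did not pass (log2 fold change 2.11, SE 1.09, adjusted p = 0.317).

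Outer radial glia genes gave 27 tested features, with 2 higher in the OSVZ and 1 in the IZ (11.1% called, against 1.53% of all LINC and AS features), all named after TMEM132B, a transmembrane protein gene. LINC-TMEM132B-26 had 8.65 and 5.25 CPM in the OSVZ and 0.650 and 0.531 CPM in the IZ (log2 fold change 3.54, SE 0.77, adjusted p = 0.00232). It was not particular to the OSVZ, with 8.56 CPM in the VZ library, between the OSVZ values, and 3.40 and 1.67 CPM in the ISVZ. LINC-TMEM132B-23 had 8.96 and 8.58 CPM against 3.56 and 2.40 CPM (log2 fold change 1.55, SE 0.44, adjusted p = 0.0226). LINC-TMEM132B-3 went the other way, with 0 and 0 CPM in the OSVZ and 0.354 and 0.614 CPM in the IZ (adjusted p = 0.0107). Among the 10 gene names with more than 1 called feature, TMEM132B was the only one with calls in both directions, from 12 features tested. LINC-HOPX-1, named after HOPX, had 14.5 and 8.28 CPM in the OSVZ and 2.32 and 2.76 CPM in the IZ and did not pass (log2 fold change 2.16, SE 0.88, adjusted p = 0.166). PTPRZ1 and TNC are the genes that the study names as outer radial glia markers, and their features did not pass either. LINC-PTPRZ1-1 had a log2 fold change of 0.70 (SE 0.68, adjusted p = 0.674). TNC-AS-2 had 0.85 (SE 0.93, adjusted p = 0.720), with 1.59 and 3.83 CPM in the OSVZ overlapping 2.17 and 0.838 CPM in the IZ. The call did not hold without single libraries for LINC-TMEM132B-23 (4 of 4 fits, adjusted p up to 0.207, without IZ replicate 2) and LINC-TMEM132B-3 (2 of 4 fits, adjusted p up to 0.114, without OSVZ replicate 2).

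Cell cycle genes gave 37 tested features with 1 call in each direction (5.41% called, against 1.53% of all LINC and AS features). CCNB1-AS-1, named after the mitotic cyclin B1, had 6.19 and 4.68 CPM in the OSVZ and 1.32 and 1.62 CPM in the IZ (log2 fold change 1.89, SE 0.40, adjusted p = 0.00195), and its ISVZ and VZ levels, 5.74 to 6.93 CPM, were like those of the OSVZ. LINC-BUB1B-2, named after a spindle checkpoint kinase, was higher in the IZ, with 0.0759 and 0.591 CPM in the OSVZ against 4.17 and 3.99 CPM (log2 fold change −3.51, SE 0.92, adjusted p = 0.0156). It was highest in the MZ, at 7.56 and 7.04 CPM, and also present in the CPi, at 4.95 and 6.49 CPM. Of 15 features named after genes of intermediate progenitors, none was called by edgeR or DESeq2, and 2 had an unadjusted p under 0.05 in edgeR. Calls that ended when 1 library was left out were those of LINC-BUB1B-2 (2 of 4 fits, adjusted p up to 0.192, without OSVZ replicate 1).

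Postmitotic cortical neuron transcription factors gave 98 tested features, with 5 called (5.10%), all higher in the IZ. Of all LINC and AS features 1.53% were called, and 70.9% of those calls lay in the IZ. TSHZ3-AS-1, named after a zinc finger homeobox factor of projection neurons, had 0.228 and 0.733 CPM in the OSVZ and 16.8 and 11.1 CPM in the IZ (log2 fold change −4.79, SE 0.55, adjusted p = 5.21e-07). LINC-SOX11-14, named after a factor of newborn neurons, had 0.645 and 0.307 CPM against 8.23 and 15.2 CPM (log2 fold change −4.66, SE 0.70, adjusted p = 5.46e-05). In the CPi the first had 13.1 and 7.91 CPM, which overlaps its IZ levels, and the second had 22.2 and 27.8 CPM, above both.

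LINC-SOX4-6, named after another factor of newborn neurons, had 0.493 and 0.615 CPM in the OSVZ and 1.89 and 3.55 CPM in the IZ (log2 fold change −2.28, SE 0.63, adjusted p = 0.0189). ZFPM2-AS-8 had 0 and 0 CPM against 0.807 and 0.251 CPM (adjusted p = 0.0464). Both were picked for description after their values were seen, and both IZ libraries were above the OSVZ libraries. The 16 features of this list with at least 1 CPM, which include LINC-SOX11-14, LINC-SOX4-6 and TSHZ3-AS-1, had a median log2 fold change of 0.19, and 9 were positive. Leaving out 1 library ended the call of LINC-SOX4-6 (3 of 4 fits, adjusted p up to 0.207, without IZ replicate 2) and ZFPM2-AS-8 (4 of 4 fits, adjusted p up to 0.239, without OSVZ replicate 2).

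Features named after genes of migration, adhesion and excitability were called at 0% to 2.06%, near the 1.53% of all LINC and AS features. Their edgeR calls lay in the IZ, as did 70.9% of all LINC and AS calls. Migration and axon guidance genes gave 2 calls of 123 features (1.63%), CNTN5-AS-4 and LINC-EPHA7-1. The latter, named after an ephrin receptor, had 0.0759 and 0.0709 CPM in the OSVZ and 1.79 and 0.670 CPM in the IZ (log2 fold change −4.02, SE 0.85, adjusted p = 0.00182). Synaptic adhesion genes gave 2 calls of 97 (2.06%), both named after CNTNAP5, a neurexin-family gene. CNTNAP5-AS-9 had 0 and 0 CPM against 0.374 and 0.586 CPM (at least 10.6-fold, adjusted p = 0.0175). With 1 library left out, the call was lost for CNTNAP5-AS-9 (3 of 4 fits, adjusted p up to 0.149, without OSVZ replicate 2) and LINC-EPHA7-1 (1 of 4 fits, 0.0562, without IZ replicate 1).

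Neurotransmitter receptor and ion channel genes gave 2 calls of 177 (1.13%) in edgeR. DESeq2 called 6 in the IZ and 1 in the OSVZ, against 174 and 106 of all 10774 LINC and AS features. KCND3-AS-3, named after a potassium channel of the A-type current, had 1.63 and 2.67 CPM in the OSVZ and 8.15 and 7.26 CPM in the IZ (log2 fold change −1.83, SE 0.49, adjusted p = 0.0147). Cadherins and protocadherins had no call among 62 features, with 2 at an unadjusted p under 0.05 in edgeR and 1 called by DESeq2, in the IZ. Their 13 features with at least 1 CPM had a median log2 fold change of −0.69, and 3 of them were positive. Single libraries decided the call of KCND3-AS-3 (3 of 4 fits, adjusted p up to 0.235, without OSVZ replicate 1).

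Extracellular matrix genes gave 2 calls of 90 features (2.22%, near the 1.53% of all LINC and AS features), both higher in the IZ. DESeq2 called 5, also all in the IZ, where it called 174 of all 10774 LINC and AS features. LINC-ITGAE-1, named after an integrin subunit, had 5.65 and 4.78 CPM in the OSVZ and 15.2 and 15.9 CPM in the IZ (log2 fold change −1.58, SE 0.26, adjusted p = 9.10e-05). COL15A1-AS-1, given above, was the other. Morphogen and Notch signalling genes gave 1 call of 94 (1.06%), LGR5-AS-1.

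Zinc finger genes gave 301 tested features, of which 3 were called (0.997%, below the 1.53% of all LINC and AS features), all higher in the OSVZ. ZNFX1-AS-1 had 31.2 and 19.4 CPM in the OSVZ and 9.43 and 12.5 CPM in the IZ (log2 fold change 1.20, SE 0.29, adjusted p = 0.00578). ZNFX1 encodes a helicase with zinc fingers of another type and acts in antiviral defence, so it is no DNA-binding factor of the usual kind. LINC-ZBTB14-2 had 22.0 and 16.2 CPM against 9.13 and 11.0 CPM (log2 fold change 0.92, SE 0.28, adjusted p = 0.0364). LINC-ZNF474-4 had 0.304 and 0.426 CPM against 0 and 0 CPM (at least 10.9-fold, adjusted p = 0.0491) and was highest in the VZ library, at 3.59 CPM. Of the 57 zinc finger features with at least 1 CPM, 38 were positive, with a median log2 fold change of 0.32, against 976 of all 1708 LINC and AS features at that level, with a median of 0.17. The call did not hold without single libraries for ZNFX1-AS-1 (2 of 4 fits, adjusted p up to 0.137, without OSVZ replicate 1), LINC-ZBTB14-2 (3 of 4 fits, adjusted p up to 0.265, without IZ replicate 1) and LINC-ZNF474-4 (4 of 4 fits, adjusted p up to 0.286, without IZ replicate 1).

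Features named after marker genes of other cell types were few, so they say little on the makeup of the tissue. Astrocyte genes gave 1 call of 8 features, against 1.53% of all LINC and AS features. LINC-GLUL-1, named after glutamine synthetase, which radial glia also express, had 220 and 195 CPM in the OSVZ and 59.7 and 96.3 CPM in the IZ (log2 fold change 1.41, SE 0.20, adjusted p = 1.48e-05). It was the most abundant of the named features described here, and its level in the MZ was also high, at 148 and 151 CPM. Summed over the astrocyte list the features reached 202 to 226 CPM in the OSVZ and 64.5 to 101 CPM in the IZ, almost all of it LINC-GLUL-1.

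Interneuron genes gave 1 call of 31 (3.23%, against 1.53%), DLX5-AS-1. Their features summed to 20.1 and 35.3 CPM in the OSVZ and 19.0 and 14.6 CPM in the IZ, and 8 of the 9 with at least 1 CPM were positive. Those named after the GABA synthesis gene GAD1 did not pass, with 1.40 and 3.64 CPM against 1.75 and 1.59 CPM for GAD1-AS-1 (adjusted p = 0.714). Oligodendrocyte lineage genes (11 features), vascular and pericyte genes (13) and microglia and blood cell genes (7) had no call in edgeR or DESeq2, with 1, 0 and 0 features at an unadjusted p under 0.05 in edgeR. Vascular features summed to 1.90 and 2.46 CPM in the OSVZ and 2.46 and 2.46 CPM in the IZ. Whether a different share of these cells contributed to the border was not tested.

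**Figure D3:**
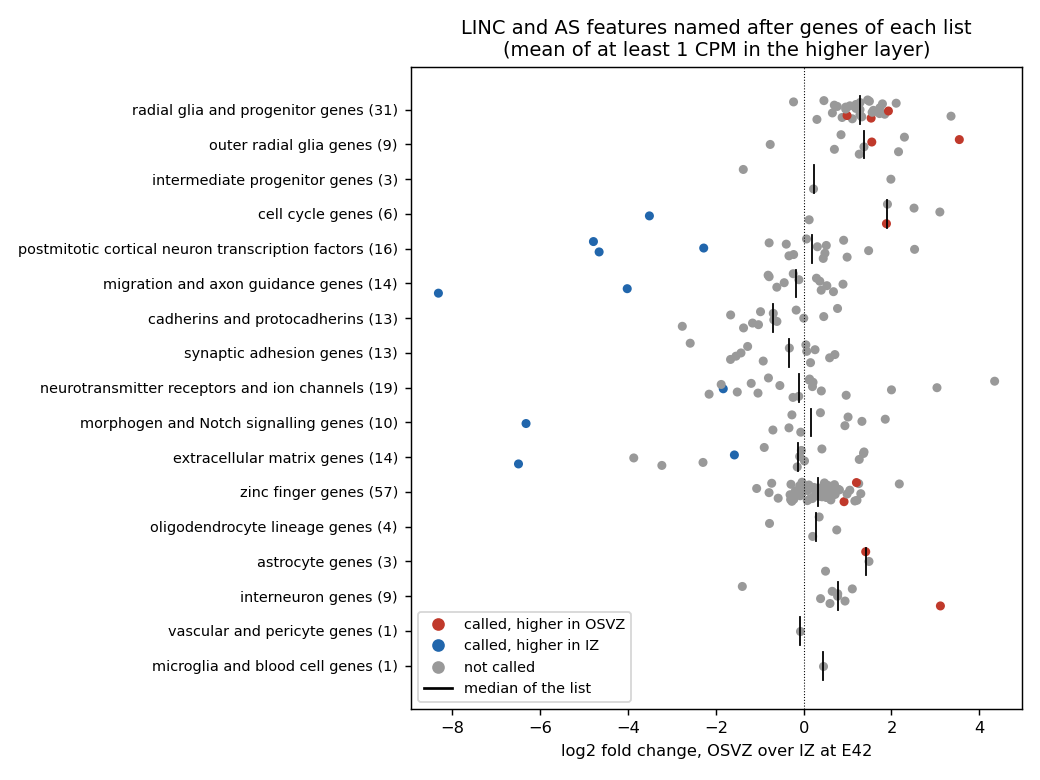
Log2 fold change of OSVZ over IZ at E42 for each LINC or AS feature named after a gene of 17 lists and with a mean of at least 1 CPM in the higher layer (number in brackets). Points are features, red where called higher in the OSVZ, blue where called higher in the IZ and grey where not called, and black bars mark the median of each list. The radial glia points lie to the right of 0 with 1 exception, and the called features of neuron transcription factors, guidance and matrix genes lie to the left of 0, between −8.32 (CNTN5-AS-4) and −1.58 (LINC-ITGAE-1), with some uncalled matrix features further left than the latter.

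The OSVZ and IZ features were followed through the other layers of E42. Of the 1540 features higher in the IZ, 939 (61.0%) had their highest mean in the CPi and 298 (19.4%) in the IZ itself. Of the 806 higher in the OSVZ, 384 (47.6%) were highest in the OSVZ and 362 (44.9%) in the ISVZ, when the VZ was set aside because it kept 1 library. Over all 26687 features with a count in these layers, the CPi was highest for 18.0%, the IZ for 12.2%, the OSVZ for 18.4% and the ISVZ for 21.3%. Of the named features, 62 of the 117 IZ features were highest in the CPi and 31 in the IZ, and 37 of the 48 OSVZ features were highest in the OSVZ and 9 in the ISVZ. The OSVZ and IZ libraries that decided the calls also enter this ranking, so the shares describe the features and test nothing. The shares over all features include TSDBGID features, so they are no background for the named ones.

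The border was also set beside a comparison of E42 that shares no library with it, the ISVZ against the CPi. These layers were compared by their mean log2(CPM + 1). Of the 806 features higher in the OSVZ, 785 (97.4%) were higher in the ISVZ than in the CPi. Of the 1540 higher in the IZ, 1510 (98.1%) were lower in the ISVZ than in the CPi. Of the 26254 features tested that had a nonzero difference, 53.2% were higher in the ISVZ. Across the 26780 features, the log2 fold changes of these comparisons had a Pearson correlation of 0.77, given as a description because features are not replicates.

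**Figure D4:**
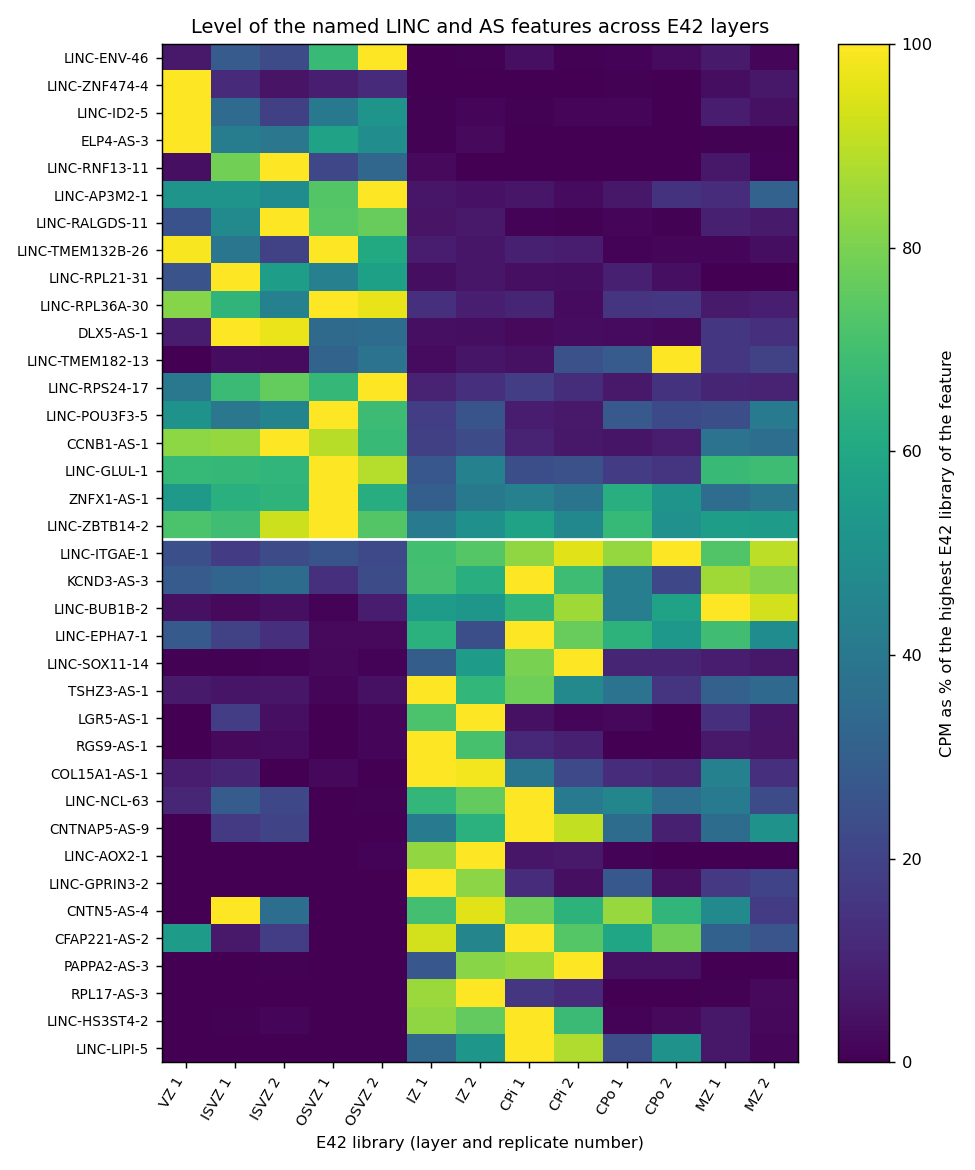
Levels of LINC and AS features named from the largest changes and the gene lists across the 13 E42 libraries of the fit, from the VZ to the MZ, each feature scaled so that its highest library is 100%. Rows above the white line were higher in the OSVZ and rows below it in the IZ. Most upper rows are brightest in the VZ, ISVZ or OSVZ. Several lower rows (LINC-AOX2-1, RPL17-AS-3, LGR5-AS-1, RGS9-AS-1) are bright in the IZ and dark in the CPi, while LINC-SOX11-14 and LINC-LIPI-5 are brightest in the CPi.

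At E28 the same border gave 913 calls (3.41%), 369 higher in the OSVZ and 544 in the IZ. That count too rested on each library, with 355 without IZ replicate 1, 452 without OSVZ replicate 2, 459 without OSVZ replicate 1 and 565 without IZ replicate 2. By mean log2(CPM + 1) at E28, 718 of the 801 OSVZ features called at E42 with a nonzero difference (89.6%) were also higher in the OSVZ. Of the 1531 such IZ features, 1324 (86.5%) were lower in it. Of all 25184 features tested that had a nonzero difference at E28, 50.9% were higher in the OSVZ. TSHZ3-AS-1 had 0.592 and 0.794 CPM in the E28 OSVZ and 4.07 and 6.31 CPM in the E28 IZ (log2 fold change −2.90, adjusted p = 0.000745). CCNB1-AS-1 had 10.7 and 9.77 CPM against 1.87 and 3.50 CPM (log2 fold change 1.93, adjusted p = 0.00359), so both features were called at both stages. The E28 call of CCNB1-AS-1 ended in 1 of 4 fits (adjusted p = 0.152, without E28 IZ replicate 1).

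The change of the border between the stages was tested directly, as the difference at E42 minus the difference at E28. Of the 26780 features, 150 (0.56%) passed, 124 shifted toward the IZ at E42 (0.463%) and 26 toward the OSVZ (0.0971%). Of the 124, 97 were called higher in the IZ at E42 and not at E28, 21 were called higher in the IZ at both stages and 3 went from the OSVZ at E28 to the IZ at E42. The count was 43 without E42 OSVZ replicate 1, 48 without E42 IZ replicate 1, 61 without E42 IZ replicate 2 and 81 without E42 OSVZ replicate 2, and 62, 63 and 68 without E28 IZ replicate 2, E28 IZ replicate 1 and E28 OSVZ replicate 1.

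Among named features 8 of 10774 changed between the stages (0.0743%), 7 toward the IZ and 1 toward the OSVZ. PFKP-AS-1, named after the platelet-type phosphofructokinase of glycolysis, had 0.874 and 0.382 CPM in the OSVZ and 1.55 and 1.61 CPM in the IZ at E28. At E42 it had 0.152 and 0.638 CPM against 24.0 and 28.3 CPM (log2 fold change −5.95, SE 0.56, adjusted p = 1.83e-08). The IZ libraries of E42 thus lay above those of E28 while every OSVZ library lay under 1 CPM, and the change of the difference was −4.62 (adjusted p = 0.00119). The CPi was higher again, at 57.2 and 48.8 CPM.

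LINC-HIS-71-7, which carries a histone H3 name, changed on the other side of the border. Its IZ libraries had 1.78 and 1.51 CPM at E28 and 4.17 and 2.76 CPM at E42, whereas its OSVZ libraries went from 2.90 and 2.09 CPM to 0 and 0.0709 CPM (change of the difference −6.87, adjusted p = 0.00531). LINC-LORF2-107, which carries the name of the LINE-1 reading frame, had 47.3 and 37.7 CPM in the E28 OSVZ and 41.2 and 37.4 CPM in the E28 IZ, and 11.1 and 14.9 CPM against 44.9 and 43.1 CPM at E42 (change −1.87, adjusted p = 0.00431). For both, the OSVZ libraries of E42 lay below those of E28 and the IZ libraries of E42 above those of E28. Both names belong to families of many copies, so reads may be split among them. Without E42 OSVZ replicate 1 neither change passed (adjusted p = 0.0745 for each).

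LINC-NEBL-1, named after the actin-binding protein nebulette, was the 1 named feature that shifted toward the OSVZ. At E28 it had 0.0282 and 0 CPM in the OSVZ and 0.775 and 0.858 CPM in the IZ. At E42 the layers did not pass the test, with 2.54 and 2.22 CPM against 2.72 and 3.63 CPM (log2 fold change −0.41, SE 0.55, adjusted p = 0.772), and the change of the difference passed (adjusted p = 0.0210). It ended in 7 of 8 fits with 1 library left out (adjusted p up to 0.159, without E28 OSVZ replicate 2), whereas that of PFKP-AS-1 passed in all 8 (adjusted p up to 0.0371).

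**Figure D5:**
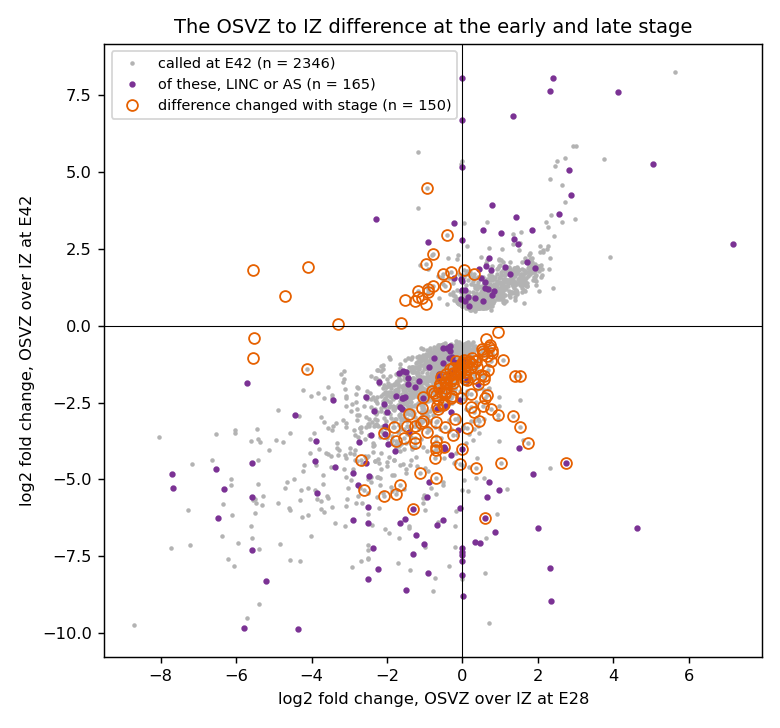
Log2 fold change of OSVZ over IZ at E42 (vertical axis) against that at E28 (horizontal axis). Grey points are the 2346 features called at E42, purple points the 165 LINC and AS features among them, and orange circles the 150 features whose difference changed between the stages. Most points lie at the lower left and upper right, and most circles lie below 0 on the vertical axis near 0 on the horizontal one.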

How the data were processed

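RNA sequencing counts of 36 libraries of laser-dissected fetal tree shrew cortex were used. Per the labels and the study's methods, the authors trimmed adapters, mapped reads with HISAT, ran HTSeq-count with annotation TS_3.0 and deposited raw counts per feature without normalization. HTSeq's own lines were removed; ambiguous reads were 17.0% to 17.5% in the 4 libraries compared.

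Analysis used R 4.3.3 with edgeR 4.0.16: filterByExpr (minimum count 10, by group), TMM, 1 mean for each of 18 groups over 34 libraries (16 residual degrees of freedom, common biological coefficient of variation 0.377), robust glmQLFit and quasi-likelihood tests with Benjamini-Hochberg adjustment at 0.05 over all 26780 features tested. DESeq2 1.42.0, the authors' tool, was an alternative. The interaction tested the E42 minus the E28 difference. Exact intervals (95%) and floors (3 counts over a layer's 2 libraries) cover counting error only. Figures were drawn with matplotlib 3.10.9.

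Named features were the 12 LINC or AS features with the largest change in each direction (called, layers not overlapping, at least 1 CPM, 1 per symbol), up to 3 called per list by adjusted p (1 per symbol), the 2 TSDBGID features with the largest change in each direction (at least 5 CPM) and up to 3 per direction for the interaction. Some uncalled list features and second features of a gene were added after their values were seen. The comparison and the lists were chosen with earlier results of these data known. Of 12435 gene names, 10412 are RefSeq symbols. No sequences or coordinates were used here. Some named features are not reported here.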

Additional observations from a re-analysis of the deposited data

Results flagged for a closer look

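The difference between the OSVZ and the IZ was not the same at E28 and E42 for 150 features, by the interaction test of edgeR over 26780 features (0.56%). Of the features described by name, 4 were among them. The change of the log2 difference from E28 to E42 was −4.62 for PFKP-AS-1 (adjusted p = 0.00119), −6.87 for LINC-HIS-71-7 (adjusted p = 0.00531), −1.87 for LINC-LORF2-107 (adjusted p = 0.00431) and 5.10 for LINC-NEBL-1 (adjusted p = 0.0210). Groups of 2 libraries are too small to look for single outlying libraries.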

How the results depend on the processing

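With 2 libraries per layer the precision is limited, and features under 1 CPM, as most LINC and AS features were, rest on few counts. The E42 count of 2346 stayed within 1.5 times under DESeq2's Wald test (3443), its size factors in edgeR (2374), no filter (2524), all 36 libraries (1765), only the 4 libraries compared (2891), library sizes without the 20 most abundant features (2451) and a log2 fold change above 1 (1687, with 434 higher in the OSVZ).

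Values that moved further were as follows. With the DESeq2 Wald test, 1474 features were higher in the OSVZ, 280 LINC and AS features were called (106 in the OSVZ), 394 changed between stages (249 toward the IZ, 145 toward the OSVZ) and 1714 were called at E28. With only the E42 libraries, 4128 were called (1566 and 2562), 470 of them LINC and AS (195 and 275). With only the 4 libraries, 294 LINC and AS features were called (127 in the OSVZ), and with the 4 E28 libraries of these layers added 53 shifted toward the OSVZ. With no filter, 76 LINC and AS features were higher in the OSVZ and 383 changed between stages (229 and 154). With all 36 libraries, 44 changed between stages (40 toward the IZ and 4 toward the OSVZ) and 404 were called at E28. The causes were not tested.

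With the replicate block within each stage, 3939 features were called at E42 (1691 higher in the OSVZ), 302 of them LINC and AS (121 and 181), 522 changed between stages (391 toward the IZ, 131 toward the OSVZ) and 2001 were called at E28. The labels do not state what the replicate number marks, and deviations of equal numbers correlated at −0.0149 between the E42 OSVZ and IZ, and at 0.199 at E28, so at E42 the number is not shown to pair the libraries.

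With 1 library left out, E42 calls lay between 1166 and 1723 (OSVZ 257 to 709, IZ 828 to 1014), LINC and AS calls between 57 and 81 (OSVZ 8 to 31, IZ 49 to 59), changes between stages between 43 and 134 (toward the OSVZ 3 to 23, toward the IZ 39 to 126) and E28 calls between 355 and 565. A layer then has 1 library, which is assumed to vary like the other groups. Of the named features called at E42, 19 to 27 lost the call in each such fit, 10 with all 36 libraries, 3 with only the 4 libraries and 2 with no filter.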
